A study of Mus musculus with 8 samples.

Results

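Of 8 libraries of monocyte-derived dendritic cells from the inflamed mouse central nervous system, 2 held clearly less Fos RNA than the rest, and their transcriptomes are described here against those of the other 6. The low-Fos libraries were chosen on the measured value itself, as those with a deposited log2 value of Fos under 9. One came from each treatment group, PBS 1 and NPC A. The value nearest below the limit was 8.28 in NPC A, and the value nearest above it was 9.65 in NPC C. Because a measured value picked the libraries, every difference between them and the others is a description with no p-value. The labels give no reason why these libraries should stand apart, and tie no batch, date or operator to them.

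All libraries came from C57Bl/6 mice with experimental autoimmune encephalomyelitis, a T cell-driven disease of myelin that serves as a model of multiple sclerosis, induced with peptide 35 to 55 of myelin oligodendrocyte glycoprotein (MOG). When disease peaked, 2 to 4 days past its first signs by the series text and 4 days by the sample protocol, mice were given 10 µl of PBS alone or 1000000 neural precursor cells (NPC) in the same volume into the cerebrospinal fluid space. Hindbrain and spinal cord were taken 7 days later, digested with 0.2 mg/ml collagenase for 30 minutes and sorted for cells that were CD45-high, CD11b+, Ly6G-, Ly6C+, CD11c-intermediate and MHC class II+. Each group had 4 libraries, PBS 1 to 4 and NPC A to D, each from a pool of 4 to 7 mice, and RNA integrity numbers were at least 8 throughout. The labels do not give the age or sex of the mice. A pool stands for its mice together, so differences among mice within a pool are not seen.

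Fos, Egr1, Dusp1 and the Nr4a genes are immediate-early genes, which cells transcribe within minutes of a stimulus from factors already present, and whose short-lived RNAs disappear soon after it ends. In myeloid cells the same signals, carried by MAP kinases and NF-kappaB, also raise chemokines such as Cxcl1 and Cxcl2 and cytokines such as Il6 and Osm. Enzymatic digestion of tissue and cell sorting are known to induce many of these genes, as inflammation does in the living animal, and the part of either in these libraries was not tested. In bulk RNA, fewer cells of a type and less RNA per cell cannot be told apart.

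Promoter sequences of 6 genes that were lower in both low-Fos libraries are shown because they represent the main groups below: an AP-1 subunit (Fos), an orphan nuclear receptor (Nr4a1), a pair of neighbouring neutrophil chemokines (Cxcl1, Cxcl2), a MAP kinase phosphatase (Dusp1) and an inducible chaperone (Hspa1a). The sequences are from RefSeq on GRCm38.p6, from 250 bases before to 50 bases after the gene start, written 5′ to 3′ on the gene's strand. Capitals mark matches, on either strand, to the cyclic AMP response element TGACGTCA (CRE), the short CRE TGACG, which overlaps it, the TATA box TATAAA, the heat shock element GAANNTTC, and the kappaB site. The windows are chr12:85473640-85473939, plus strand for Fos, chr15:101266596-101266895, plus strand for Nr4a1, chr5:90890995-90891294, plus strand for Cxcl1, chr5:90903649-90903948, plus strand for Cxcl2, chr17:26508423-26508722, minus strand for Dusp1 and chr17:34972107-34972406, minus strand for Hspa1a.
Fos: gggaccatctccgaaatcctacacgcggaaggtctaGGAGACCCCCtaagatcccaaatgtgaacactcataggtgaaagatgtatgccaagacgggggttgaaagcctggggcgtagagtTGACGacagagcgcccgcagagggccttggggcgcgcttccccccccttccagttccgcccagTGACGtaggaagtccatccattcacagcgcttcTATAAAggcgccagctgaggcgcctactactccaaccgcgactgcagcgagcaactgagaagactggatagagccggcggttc
Nr4a1: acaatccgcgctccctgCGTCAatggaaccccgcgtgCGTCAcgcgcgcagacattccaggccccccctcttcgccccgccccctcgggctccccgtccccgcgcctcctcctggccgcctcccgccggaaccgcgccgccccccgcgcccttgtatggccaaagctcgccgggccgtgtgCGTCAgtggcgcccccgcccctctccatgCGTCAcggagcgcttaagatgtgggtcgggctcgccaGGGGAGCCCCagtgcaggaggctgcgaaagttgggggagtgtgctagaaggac
Cxcl1: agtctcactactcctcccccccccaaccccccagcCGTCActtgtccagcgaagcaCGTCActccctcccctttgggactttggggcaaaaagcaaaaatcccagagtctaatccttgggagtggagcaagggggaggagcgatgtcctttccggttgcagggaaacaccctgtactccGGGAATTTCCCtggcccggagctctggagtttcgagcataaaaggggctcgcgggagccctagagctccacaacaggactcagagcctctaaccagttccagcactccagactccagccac
Cxcl2: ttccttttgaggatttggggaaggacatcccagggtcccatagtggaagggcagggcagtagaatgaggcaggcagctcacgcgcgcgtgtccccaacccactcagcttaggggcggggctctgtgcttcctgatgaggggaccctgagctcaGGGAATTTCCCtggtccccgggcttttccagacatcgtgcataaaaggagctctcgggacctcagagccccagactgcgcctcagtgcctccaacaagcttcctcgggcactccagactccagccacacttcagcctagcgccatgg
Dusp1: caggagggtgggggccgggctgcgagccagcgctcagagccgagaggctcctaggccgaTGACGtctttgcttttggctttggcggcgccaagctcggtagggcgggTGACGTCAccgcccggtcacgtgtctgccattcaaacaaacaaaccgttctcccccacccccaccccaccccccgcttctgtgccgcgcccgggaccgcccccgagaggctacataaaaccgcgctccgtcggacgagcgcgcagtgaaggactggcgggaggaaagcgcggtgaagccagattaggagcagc
Hspa1a: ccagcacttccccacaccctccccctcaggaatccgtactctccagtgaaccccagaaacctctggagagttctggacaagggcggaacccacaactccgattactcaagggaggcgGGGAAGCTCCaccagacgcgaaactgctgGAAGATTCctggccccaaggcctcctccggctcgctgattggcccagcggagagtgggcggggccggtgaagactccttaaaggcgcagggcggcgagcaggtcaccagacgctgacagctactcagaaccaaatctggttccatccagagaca
Cxcl1 and Cxcl2 carry the same marked stretch, in which kappaB matches on the plus and the minus strand overlap. Dusp1 carries the full CRE, Fos has a kappaB match, a pair of short CRE matches and a TATA box, and Nr4a1 has 4 short CRE matches and a kappaB match. Hspa1a has the heat shock element and a kappaB match. Among the 8382 genes of the table with a promoter sequence used here, 3.7% hold the CRE, 36.3% the short CRE, 8.57% the TATA box, 7.13% the heat shock element and 12.2% the kappaB site. A match is a run of letters and not evidence of binding. Only 136 of the 206 genes lower in both libraries have an entry, so no share over the set is given.

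The deposited table gives log2 normalised expression, which is not corrected for gene length, so levels are compared between libraries and not between genes. The reads recovered from the table numbered 15746650 for PBS 1 and 7702189 to 21068166 for the other PBS libraries, against 3962743 for NPC A and 2653818 to 7003542 for the other NPC libraries. Each low-Fos library thus lay within the depth range of its own group. Mitochondrial genes took 34.8% of the reads of PBS 1, just above the 18.6 to 34.4% of the other PBS libraries, and 33.5% of those of NPC A, within the 25.2 to 33.9% of the other NPC libraries. The genes behind the sort were expressed in both: Ptprc, the CD45 gene, had log2 values of 9.69 (PBS 1) and 10.04 (NPC A) against 9.52 to 9.85 in the other 6, and H2-Ab1, an MHC class II chain, was at 11.89 and 11.59 against 11.73 to 12.21. Itgam (CD11b) was at 10.68 and 10.21 against 10.18 to 11.15, and Itgax (CD11c) was at 7.35 and 7.17 against 7.11 to 7.74. Ly6c2, part of the Ly6C antigen, was at 8.99 and 8.78 and lay above the other 3 of its group each time (8.31 to 8.81 in PBS, 8.16 to 8.72 in NPC).

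For each gene the deviation of a low-Fos library is its log2 value minus the mean of the other 3 libraries of its own treatment group, so that treatment drops out. A gene was counted as lower or higher when both deviations were at least 2-fold and the low-Fos library lay outside the range of the other 3 in both groups. By that rule 206 of 12256 genes (1.68%) were lower in both low-Fos libraries and 107 (0.873%) were higher. Those shares are the background for every list below, and since the rule used this contrast they are read as a description. Without a size limit, 1749 genes (14.3%) lay below and 1768 (14.4%) above every other library of the group in both groups. The lower set rested on larger deviations and more reads than the higher set: 42 of the lower genes and 0 of the higher genes differed at least 4-fold in both, 89 lower and 8 higher genes had a mean log2 value of at least 3, and 99 lower and 15 higher genes had at least 10 reads in every library. The smallest deviation that counted was 1.0 on the lower side and 1.01 on the higher side, and the largest that did not was 1.0 and 0.99, after rounding. Of the lower genes 15 had 0 reads in at least 1 low-Fos library, so that the offset added to the reads sets the size of their deviation, and no fold is given for them.

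**Figure D1:**
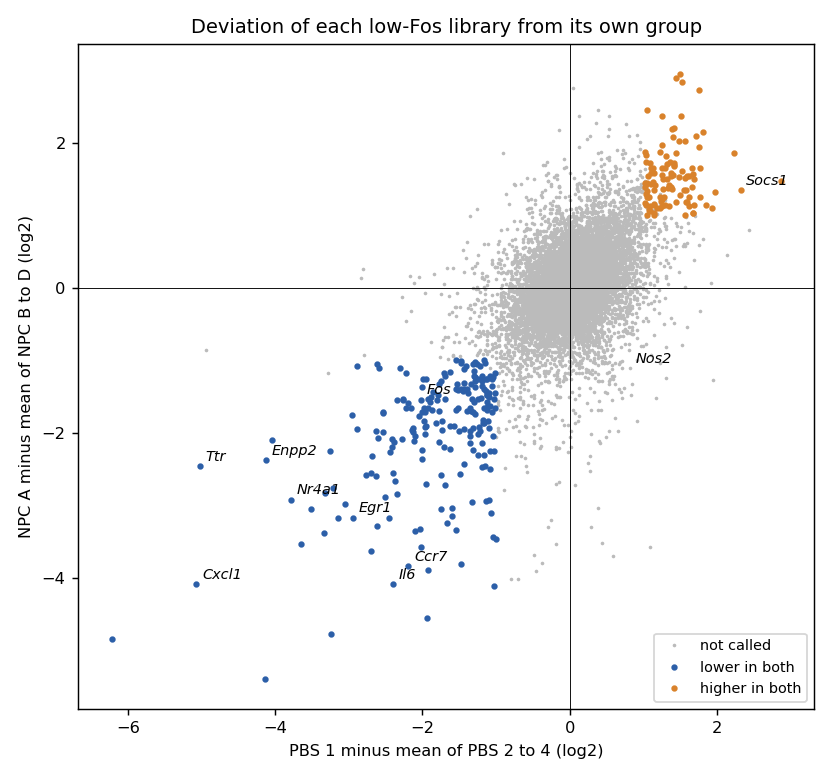
Each point is a gene, placed by the deviation of PBS 1 (x axis, log2) and of NPC A (y axis, log2) from the other 3 libraries of the group; 206 genes lower in both are blue and 107 genes higher in both are orange. The lower genes reach much larger deviations than the higher ones, with Cxcl1 at -5.07 and -4.09, and Nos2 lies off the diagonal at 0.82 and -1.11.

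The same rule, a 2-fold gap from the mean and a value outside the range of the others, was also applied to each group alone. Of the 12256 genes, PBS 1 then had 361 lower and 249 higher, and NPC A had 522 and 437. The genes lower in both made up 57.1% of the first lower set and 39.5% of the second, and those higher in both made up 43% and 24.5% of the higher sets. Across all 12256 genes the deviations of PBS 1 and NPC A, which share no library, had a Pearson correlation of 0.529 and a Spearman correlation of 0.421, and over the 7696 genes with a mean log2 of at least 3 the Pearson correlation was 0.586. Genes are not independent replicates, so no p is given. Over 5852 genes with a mean log2 of at least 4, PBS 1 and NPC A differed 2-fold or more at 48 genes, although one was a PBS and the other an NPC library. Between a low-Fos library and any other, 103 to 296 genes were that far apart, and between any pair of the other 6 the number was 16 to 146. By the root mean square difference over the same genes the separation was slight, at 0.373 between PBS 1 and NPC A, 0.379 to 0.553 between a low-Fos library and any other, and 0.223 to 0.418 among the other 6. Both measures include the genes on which they were chosen.

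AP-1 is the family of transcription factor pairs that Fos and Jun proteins form. Fos was at 7.95 in PBS 1 against 10.05, 9.69 and 10.18 in PBS 2 to 4, and at 8.28 in NPC A against 9.89, 9.65 and 9.9 in NPC B to D. Fosb, its close relative, was at 5.93 against 8.37, 8.9 and 8.8 in PBS and at 6.17 against 8.45, 8.78 and 9.02 in NPC. For Fos the choice of libraries fixes the separation. Fosb was the further down, at 6.38-fold on average over the pair of deviations against 3.43-fold for Fos. Atf3, a stress-induced partner of Jun proteins, was at 6.64 and 7.12 in the low-Fos libraries and at 8.51 to 9.27 in the other 6. Junb was at 6.51 and 6.22 against 6.97 to 8.03, and Maff, a small Maf protein, at 5.02 and 4.54 against 5.36 to 6.3. Jun itself was at 7.93 and 7.68 against 8.53 to 8.93, below all others but by less than 2-fold. Of 12 AP-1 genes measured, 5 were lower by the rule and 0 higher, 10 lay below all others of the group in both groups, and the median deviations were -0.91 in PBS 1 and -1.03 in NPC A, against 0.01 and 0.02 over all genes. Batf, a factor of dendritic and T cell differentiation, was not among them, at deviations of -0.07 and -0.21.

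**Figure D2:**
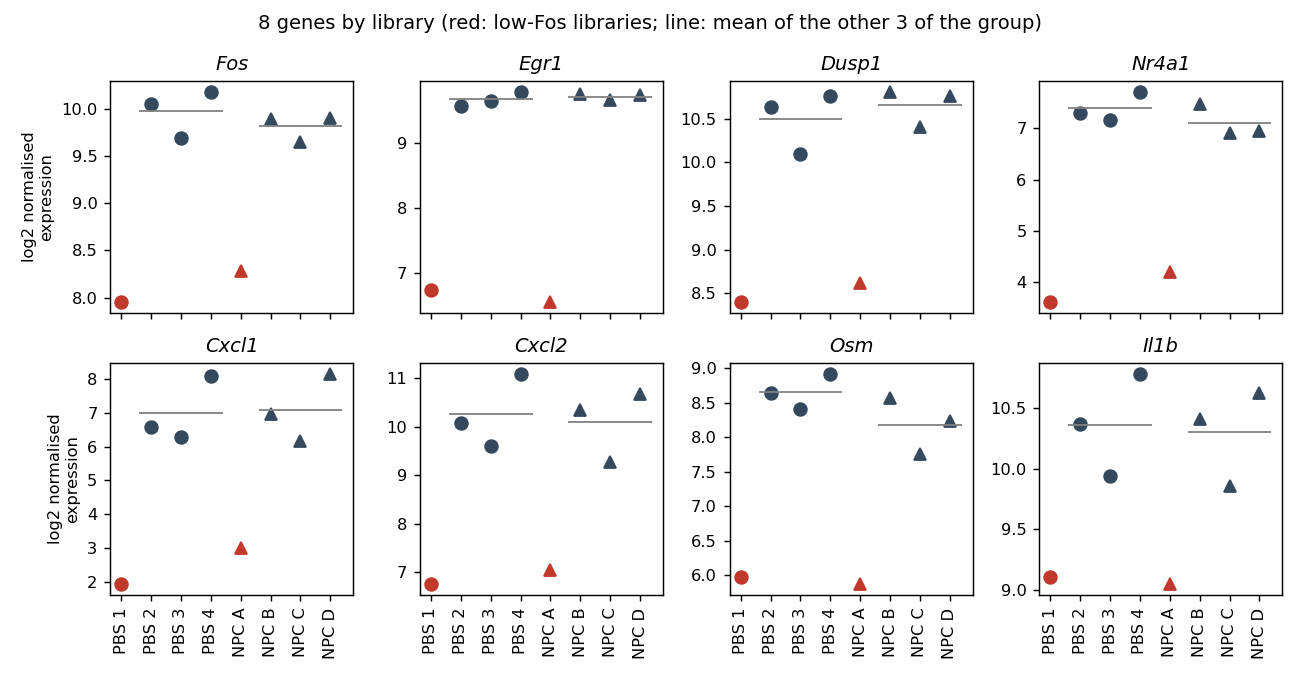
Log2 normalised expression of 8 genes (y axes, each with its own range) in every library (x axis); circles are PBS and triangles NPC libraries, red marks the low-Fos libraries and grey lines the mean of the other 3 of each group. Egr1 lay at 6.74 and 6.55 in the low-Fos libraries and between 9.57 and 9.8 in all others, whereas Cxcl1 and Il1b also spread among the other 6.

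Egr1, a zinc finger factor induced through serum response factor, varied little among the other 6 libraries. Its values were 6.74 in PBS 1 against 9.57, 9.66 and 9.8, and 6.55 in NPC A against 9.76, 9.67 and 9.74. The other 6 thus lay between 9.57 and 9.8, while the deviations were -2.94 and -3.17, or 8.33-fold on average. The 3 Nr4a genes, which encode orphan nuclear receptors, all belonged to the 12 lower genes with the largest deviations. Nr4a1 was at 3.61 against 7.3, 7.17 and 7.72 in PBS and at 4.19 against 7.47, 6.92 and 6.95 in NPC, a 10.2-fold difference. Nr4a3 was at 2.55 and 3.0 against 5.17 to 6.51, and Nr4a2 at 2.74 and 3.45 against 5.82 to 6.62. Klf4, a factor of monocyte differentiation, was at 5.55 against 7.62, 7.93 and 8.35 in PBS and at 5.65 against 7.93, 7.7 and 7.88 in NPC. Of 26 immediate-early regulators outside AP-1, 14 were lower and 0 higher, with median deviations of -1.29 and -1.52, the lowest medians of any list with at least 5 measured genes. Myc, Srf, Cebpb and Cebpd, listed with them, were not lower by the rule: Srf deviated by 0.05 and -0.58, Cebpb by 0.35 and -0.06 and Cebpd by 0.09 and -0.27.

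Several genes that switch signalling off were lower in both libraries. Dusp1, the phosphatase that inactivates p38 and JNK, was at 8.4 against 10.63, 10.1 and 10.76 in PBS and at 8.62 against 10.81, 10.41 and 10.76 in NPC. Sik1, a salt-inducible kinase that responds to cyclic AMP, was at 4.0 against 5.71, 5.86 and 5.64 and at 3.87 against 5.63, 5.64 and 5.85. Rgs1, a regulator that shortens chemokine receptor signals, was at 7.38 and 8.08 against 9.21 to 10.27. These gaps were 4.2-fold, 3.46-fold and 3.52-fold, and separation within each group is part of the rule. Of 19 such feedback genes 6 were lower and 0 higher, with medians of -0.79 and -0.64. Dusp6, the phosphatase of ERK kinases, was not lower by the rule, at deviations of -0.39 and -0.01, and Spry2 had opposite signs at -0.89 and 0.54. Zfp36, which encodes the RNA decay factor tristetraprolin and is itself induced by the same signals, was at 10.1 and 10.26 against 11.59 to 12.11. Of 20 RNA decay genes Zfp36 and Tob1 were lower, with list medians of -0.18 and -0.13.

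The NF-kappaB list did not move as a whole. Tnfaip3, the ubiquitin-editing inhibitor A20, was at 8.15 against 9.93, 9.7 and 10.24 in PBS and at 8.37 against 10.15, 9.37 and 10.25 in NPC. Nfkbiz, an inducible nuclear cofactor, was at 7.32 and 7.85 against 8.74 to 9.64. Nfkbia, the inhibitor IkappaB-alpha, was at 6.88 and 6.83 against 7.01 to 8.14, below every other library but by less than 2-fold. Those feedback genes were low in both libraries, yet only 2 of 22 members were lower by the rule. Of the 22, 6 lay below and 4 above all others of the group in both groups, against 14.3% and 14.4% of all genes. The medians of 0.01 and -0.07 were close to those of all genes. Relb, an NF-kappaB subunit, deviated by 0.12 in each.

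**Figure D3:**
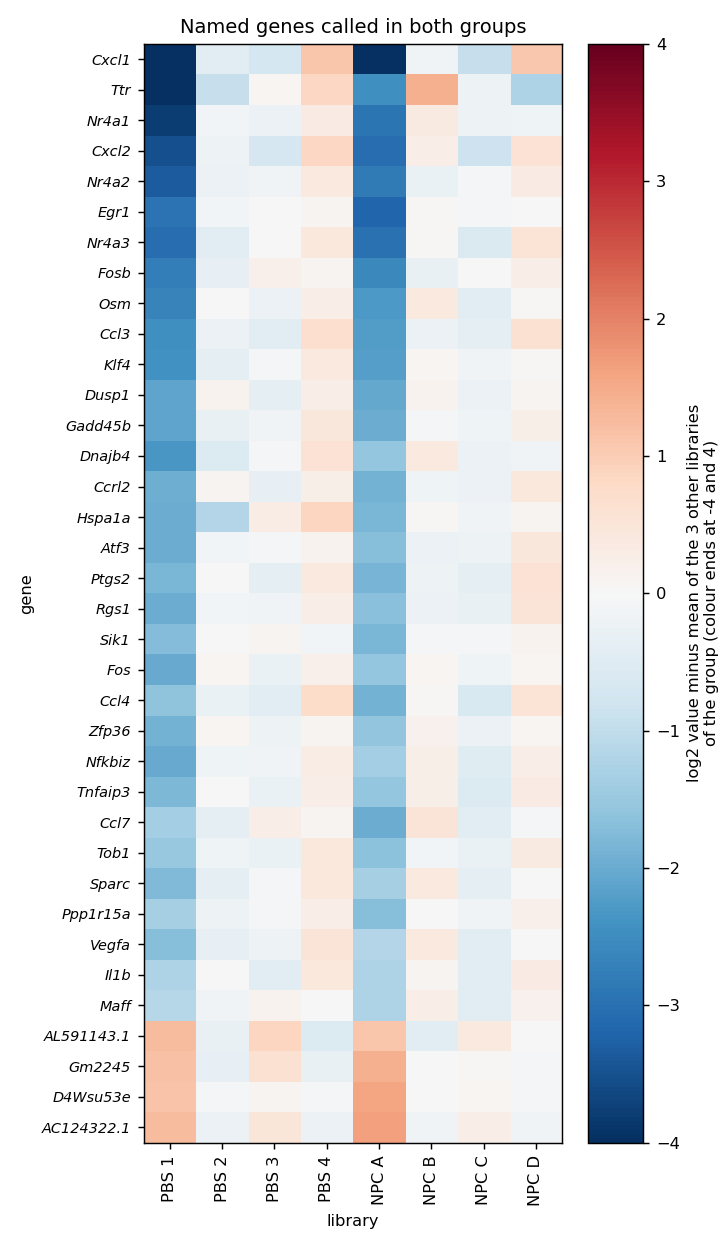
Rows are the named genes lower or higher in both low-Fos libraries, columns the 8 libraries, and colour the log2 value minus the mean of the 3 other libraries of the group (colour ends at -4 and 4). The columns of PBS 1 and NPC A are blue for all but the bottom 4 genes, and Ttr is the named lower gene that also varies most among the other NPC libraries.

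Chemokines that recruit neutrophils and monocytes included the largest gap among the named genes. Cxcl1, a ligand of the neutrophil receptor CXCR2, was at 1.92 in PBS 1 against 6.58, 6.29 and 8.1, and at 3.0 in NPC A against 6.96, 6.16 and 8.16, which is 24-fold on average. Cxcl2, which binds the same receptor, was at 6.75 against 10.08, 9.61 and 11.1 and at 7.05 against 10.35, 9.28 and 10.67, or 9.72-fold. These chemokines also varied among the other 6, from 6.16 to 8.16 for Cxcl1, and were highest in PBS 4 and NPC D. Ccl3 and Ccl4, which attract monocytes and T cells, were at 5.63 and 6.19 against 7.61 to 9.06 and at 4.0 and 3.74 against 5.02 to 6.35. Ccrl2, a decoy-like receptor that presents chemerin, was at 7.05 and 7.23 against 8.68 to 9.54. Of 15 CC chemokine and receptor genes 7 were lower, with medians of -1.02 and -1.08, and of 10 CXC genes 3 were lower, with medians of -0.43 and -0.6. Interferon-induced members had smaller deviations: Cxcl9 lay below every other library of its group at -0.22 and -0.77, Cxcl10 deviated by -0.01 and -0.67, Cxcl11 by 0.8 and 0.43, and Cxcl16 by -0.12 and -0.26. Ccl5 was at -0.06 and -0.25.

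Among cytokines, Osm, which encodes the IL-6 family member oncostatin M, was at 5.98 against 8.64, 8.41 and 8.92 in PBS and at 5.87 against 8.57, 7.75 and 8.24 in NPC. Ptgs2, the inducible cyclooxygenase, was at 7.76 and 7.88 against 9.2 to 10.32, and Il1b at 9.11 and 9.05 against 9.86 to 10.78. The gaps were 5.65-fold, 3.58-fold and 2.38-fold, and separation within each group is again part of the rule. Il6 and Il10 rested on few reads, so the size of their deviations is poorly fixed. Il6 had 24 (PBS 1) and 2 (NPC A) against 22 to 178 in the other 6, and Il10 had 9 and 2 against 11 to 83. These reads are not adjusted for depth, which differs between libraries. On the log2 scale Il6 deviated by -2.4 and -4.09 and Il10 by -3.15 and -3.18, and both were lower by the rule. Tnf was at 5.76 and 5.36 against 6.45 to 7.77, below every other library but just under 2-fold in PBS. Of 22 cytokines and mediators 9 were lower and 0 higher, with medians of -0.97 and -1.18. Nos2, the inducible nitric oxide synthase (0.82 and -1.11), and Il18 (0.19 and -0.22) had deviations of opposite sign. Inhba, the activin A subunit, deviated by -0.02 and -1.89, and Il27 was positive in both libraries at 0.47 and 0.56. Cd14, the lipopolysaccharide co-receptor, was at 6.96 and 6.54 against 7.99 to 8.86, while its partner Tlr4 deviated by 0.21 and -0.02.

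Genes of the mature, migrating dendritic cell were examined after their values had been seen. Cd83, a surface marker of mature dendritic cells that is also an early response gene, was at 4.29 against 6.84, 6.72 and 6.89 in PBS and at 5.03 against 7.32, 6.1 and 6.83 in NPC. Ccr7, the receptor that guides dendritic cells to lymph nodes, had 14 and 2 reads against 15 to 86 in the other 6, not adjusted for depth. Its log2 deviations were -2.19 and -3.84. Ccl22, a ligand of CCR4, was at 3.64 and 3.58 against 3.93 to 6.15, nearest in PBS 4. With Fscn1 these were the 4 lower genes of 17, and the medians were -0.14 and -0.49. Xcr1 and Flt3, markers of conventional dendritic cells, were the 2 lower genes of 15 in that list, and their range among the other 6 was wide, 1.8 to 4.63 for Xcr1, with the highest value in NPC B. Clec9a, another marker of those cells, deviated by -0.07 and 0.15. A wider list of dendritic identity and sort genes had 4 of 23 lower and 0 higher, with medians of -0.07 and -0.25. Its mean log2 value was 5.83 in PBS 1 and 5.96 in NPC A, against 6.12 to 6.78 in the other 6.

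Some inducible chaperones were lower in both libraries. Hspa1a, the inducible HSP70, was at 3.03 against 3.83, 5.31 and 5.88 in PBS and at 2.81 against 4.68, 4.48 and 4.74 in NPC. Dnajb4, an HSP40 partner, was at 2.49 and 3.74 against 4.29 to 5.67, while Hsp90aa1, the inducible HSP90, was at 6.0 and 6.21 against 6.75 to 7.28, a gap of less than 2-fold. Hspa1a has a near-identical copy in Hspa1b, so reads of the pair could be split between them. Of 24 chaperone and ubiquitin genes 4 were lower by the rule, Hspa1a, Hspa1b and Dnajb4 among them, and 16 lay below every other library in both groups, with medians of -0.47 and -0.45. Hsf1, the factor that induces them, deviated by 0.04 and 0.22. In the endoplasmic reticulum list 1 of 24 genes was lower, Ppp1r15a, which encodes the phosphatase subunit GADD34, at 4.1 and 3.94 against 5.24 to 5.84. Hspa5, the chaperone BiP, was at 9.41 and 9.63 against 9.7 to 10.29.

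Many of the better expressed lower genes belonged to no list, since the lists cover 66 of the 206. Thbs1, the matrix protein thrombospondin, deviated by -1.96 and -2.01, Ets2, a transcription factor downstream of MAP kinases, by -1.71 and -2.19, and Pmaip1, the BH3 protein NOXA, by -2.96 and -1.75. Nlrp3, the inflammasome sensor, deviated by -1.24 and -1.53, and Trem1, an amplifying receptor of myeloid cells, by -1.22 and -1.98. These 5 were picked after their values were seen. Of the lower genes 190 (92.2%) matched GENCODE, 94.2% of those were protein coding, and 55.8% had at most 5 exons, against 40.1% of all matched genes. Their median gene span was 13918 bases against 21594, and their median exon number 5 against 7. Exons were counted in the longest annotated transcript of each gene, which for Cxcl1, Cxcl2 and Rgs1 had 1 exon. The numbers can therefore fall short of the exons in the usual transcript. Expression level differs between the sets too, with a median mean log2 of 2.4 for the lower genes and 3.85 for all genes, and its part in the shorter spans was not tested.

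**Figure D4:**
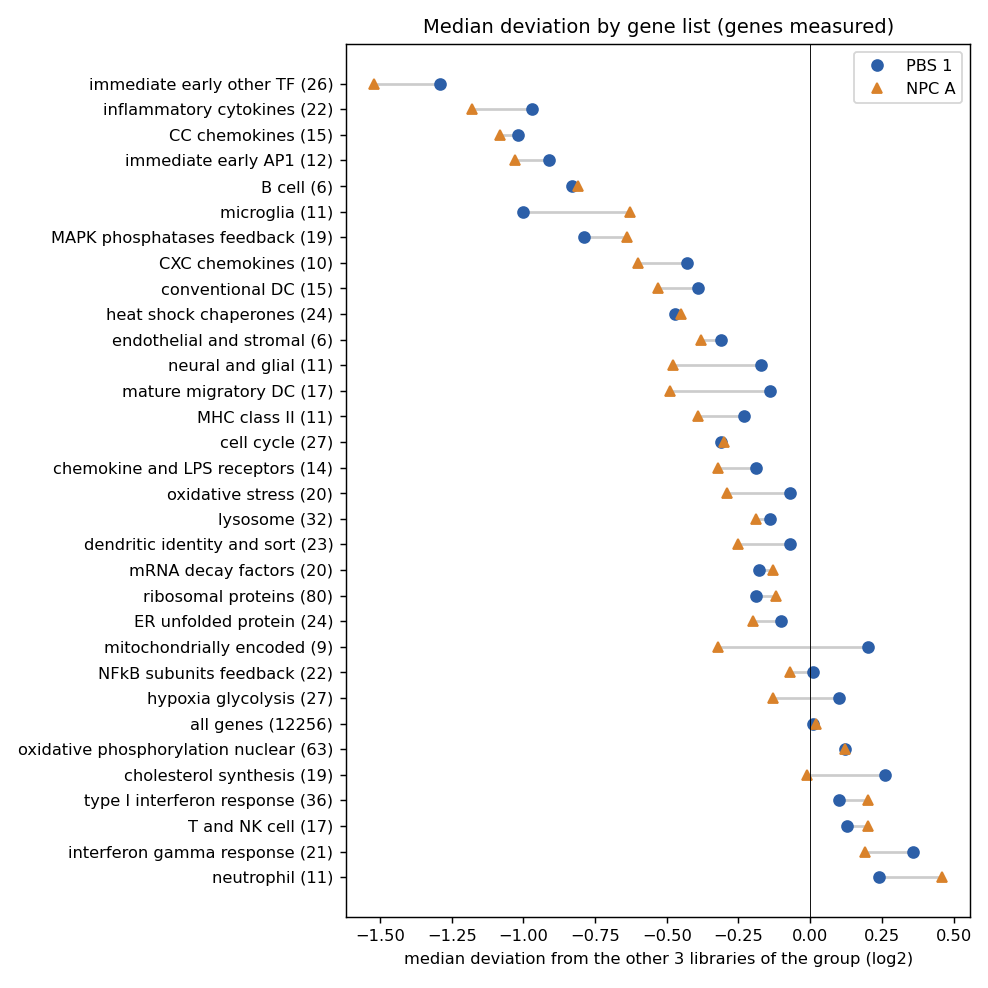
Median deviation of each gene list with at least 5 measured genes (y axis, number of measured genes in brackets) in PBS 1 (circles) and NPC A (triangles), in log2 units on the x axis. Among these, immediate-early regulators outside AP-1 had the lowest medians, at -1.29 and -1.52, all genes lay at 0.01 and 0.02, and the interferon-gamma list lay above 0 at 0.36 and 0.19.

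The higher set was smaller, weaker and made of poorly expressed genes, with a median mean log2 of 1.11. Only 4 of its 107 genes had a mean log2 of at least 4. D4Wsu53e, the best expressed, was at 8.92 against 7.71, 7.88 and 7.74 in PBS and at 9.26 against 7.69, 7.77 and 7.6 in NPC, so that the other 6 lay within a narrow band below it. AC124322.1 was at 6.54 and 7.34 against 5.05 to 5.96, AL591143.1 at 5.99 and 6.66 against 4.18 to 5.93, and Gm2245, annotated as an antisense RNA, at 4.87 and 5.91 against 3.38 to 4.54. AL591143.1 was high in PBS 3 too, at 5.6. No source used here gives the strand setting of the counting, and reads of an antisense gene and its partner cannot be told apart. Of the 107 genes 81 (75.7%) matched the annotation. Among those, 43.2% were protein coding, 27.2% long noncoding or unconfirmed transcripts and 24.7% pseudogenes. The shares over all matched genes were 90.1%, 3.11% and 5.95%. Unmatched genes are not covered by these shares, and the part of low expression in them was not tested.

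Of 10 RNAs known to stay in the nucleus, listed after values were seen, 4 were measured and 3 lay above every other library of the group in both groups, none of them past the size limit in both. The fourth, Mir17hg, was on the lower side, at deviations of -0.35 and -0.13. Malat1 was at 13.68 against 12.67, 13.21 and 12.76 in PBS and at 13.97 against 12.89, 13.51 and 13.54 in NPC. Neat1, the scaffold of paraspeckles, was at 9.72 and 9.83 against 7.93 to 9.68, and Dleu2 at 7.01 and 7.67 against 5.89 to 6.82. For Neat1, PBS 3 came close to PBS 1, at 9.68. PBS 3 was also the library with the lowest mitochondrial share, 18.6%, against 33.8 to 34.8% in the other PBS libraries.

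Some interferon-gamma response genes lay on the higher side in both libraries. Socs1, the interferon-induced inhibitor of JAK kinases, was the 1 member of 21 that was higher by the rule, at 4.02 against 1.81, 1.85 and 1.44 in PBS (255 reads in PBS 1) and at 2.81 against 1.35, 2.11 and 0.92 in NPC (28 reads in NPC A). Irf1, an early interferon target, was at 8.31 and 7.67 against 6.97 to 7.59, and Tap1, the peptide transporter of MHC class I loading, at 7.87 and 7.62 against 6.93 to 7.25. Of its genes 8 lay above and 1 below every other library of the group in both groups, and the medians were 0.36 and 0.19. Their summed linear expression, which the most abundant members set, was not higher: it was 5790 in PBS 1 against 4650 to 5800, and 4990 in NPC A against 5150 to 6080. The type I interferon list had 0 of 36 members past the rule in either direction and medians of 0.1 and 0.2. Outside that list, Oas1b was higher by the rule, at deviations of 1.19 and 1.11. The MHC class II list had 0 of 11 genes past the rule. Ciita, the master regulator of these genes, was higher in both (6.9 and 6.92 against 6.07 to 6.85). H2-Aa (11.53 and 11.61 against 11.68 to 12.25) was lower in both. H2-Eb2, a class II gene outside the list with a mean log2 of 0.69, deviated by -1.25 and -2.3 and was lower by the rule. Nuclear genes of the respiratory chain had 0 of 63 past it, with medians of 0.12 in each, and ribosomal protein genes 0 of 80, with medians of -0.19 and -0.12.

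Markers of other cells of the tissue also differed in these libraries. Microglia, the resident macrophages, express P2ry12, Tmem119 and Sall1, and the sort for CD45-high, Ly6C+ cells should leave few of them. P2ry12 was at 3.96 in both low-Fos libraries against 4.48 to 5.5 in the other 6, Tmem119 at 3.39 and 3.2 against 3.91 to 4.74, and Sparc, which microglia and stromal cells share, at 3.71 and 4.36 against 5.12 to 6.08. Of 11 microglial genes 3 were lower by the rule (Sall1, Fcrls and Sparc) and 9 lay below all others in both groups, with medians of -1.0 and -0.63. Their summed linear expression was 325 and 376 in the low-Fos libraries against 468 to 627 in the other 6. All 11 were detected in both low-Fos libraries, P2ry12 with 244 and 63 reads. The part of microglial RNA in the other differences was not tested. Ttr, the transport protein transthyretin that the choroid plexus makes in quantity, had 27 and 39 reads in the low-Fos libraries, at 0.8 against 4.92, 5.9 and 6.66 in PBS and at 3.28 against 7.17, 5.54 and 4.51 in NPC. Enpp2, also abundant in that epithelium, was at -0.12 and 1.93 against 3.12 to 5.61, whereas Kcnj13, the other measured gene of the list, had deviations of 0.94 and 0.96. The list was added after values were seen, 3 of its 15 genes were measured, and its summed linear expression was 5.05 and 18.8 against 34.5 to 195. Its part in the other differences was not tested.

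**Figure D5:**
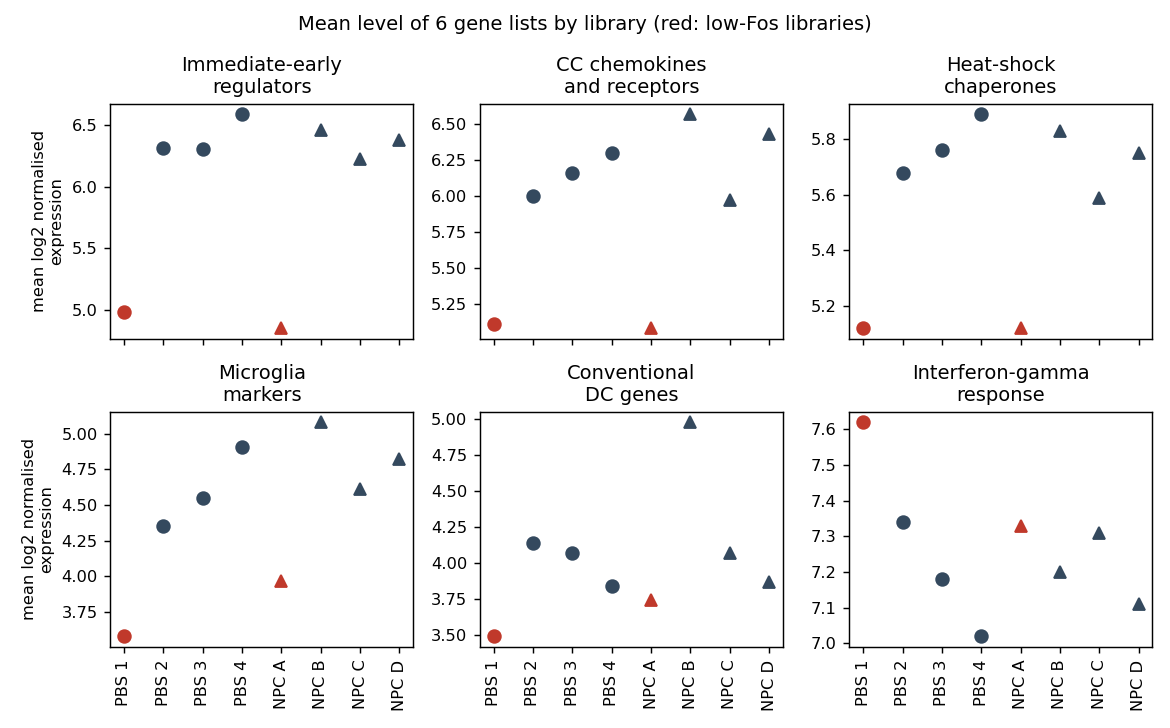
Mean log2 normalised expression of 6 gene lists (y axes, each with its own range) in every library (x axis); circles are PBS and triangles NPC libraries, and red marks the low-Fos libraries. Immediate-early regulators, CC chemokines, chaperones, microglial markers and conventional dendritic cell genes were lowest in PBS 1 and NPC A. Conventional dendritic cell genes were highest in NPC B, at 4.98, and lay at 3.49 and 3.74 in the low-Fos libraries. Interferon-gamma genes were highest in PBS 1.

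Of 6 B cell genes 0 were lower by the rule and 3 lay below all others in both groups, with medians of -0.83 and -0.81 and summed linear expression of 18.7 and 28 against 31.2 to 70.8. The 11 neural and glial genes had medians of -0.17 and -0.48, and of 6 endothelial and stromal genes 1 was lower, Rgs5 of pericytes (-2.39 and -2.13). Neutrophil and T and NK cell lists had 0 of 11 and 0 of 17 genes past the rule, and erythroid genes 0 of 3. The cell cycle list had 1 of 27 genes lower, with medians of -0.31 and -0.3. It does not cover all genes of cell division. The lower set also held Bub1, Ckap2l, Kif18a and Stil, of which the list can hold at most 1. They were picked after their values were seen, and their mean log2 values were low, from 1.57 to 2.57. For these lists too the part in the other differences was not tested.

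A comparison the choice of libraries did not use is that of NPC with PBS. With the low-Fos class as a further term in limma, 0 of 12256 genes (0%) differed between treatments at an adjusted p under 0.05, and 1887 (15.4%) had an unadjusted p under 0.05, 1045 higher and 842 lower in NPC. Without the term the numbers were 0 and 1387. Every PBS library was deeper than every NPC library, so treatment and depth cannot be told apart. The smallest adjusted p was 0.157 with the term and 0.382 without. Leaving out NPC B gave 273 genes at an adjusted p under 0.05 in limma and leaving out PBS 3 gave 5, whereas leaving out any other library gave 0. Of the 206 genes lower in both low-Fos libraries, 38 (18.4%) had an unadjusted p under 0.05, close to the 15.4% of all genes, and 0 passed the adjustment. Without the term 2 of the 206 had such a p, against 1387 of all 12256 genes. The rule favours a small number here, since the low library of each group widens the spread of these genes.

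With the term, the standard errors for the low-Fos genes were smaller, which follows from taking the difference between the classes out of the residual spread. The classes and these genes were chosen on the same values, so that fall was built in. For that reason the intervals with the term can be too narrow and the limma p-values too small. The median standard error of the treatment difference over the 206 genes was 0.29 with the term and 0.52 without it, against 0.17 and 0.19 over all genes. For Cxcl1 the NPC minus PBS difference was 0.34, with a 95% interval of -0.51 to 1.2 with the term and -2.25 to 2.94 without it. For Ptgs2 it was 0.15, with intervals of -0.28 to 0.57 and -0.93 to 1.22. For Il1b it was -0.06, from -0.46 to 0.34 and from -0.86 to 0.73. Osm had the smallest treatment p among the cytokines given here, at a difference of -0.38 and an interval of -0.73 to -0.03, but its limma p of 0.0354 became 0.287 after Benjamini-Hochberg adjustment over all genes. An interval that spans 0 does not show equal expression.

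Whether the deviation of NPC A differed from that of PBS 1 was tested with the interaction term in limma, in which each low-Fos library is the single one of its kind and is assumed to vary like the rest. At an adjusted p under 0.05 there were 0 of 12256 genes (0%), and 530 (4.32%) had an unadjusted p under 0.05. Without NPC B those numbers were 1 and 1455. Nos2, at 7.86 in PBS 1 against 6.94, 7.27 and 6.91 and at 6.14 in NPC A against 6.64, 7.41 and 7.72, had deviations that differed by -1.93 ± 0.45 (SE), and limma gave an adjusted p of 0.96. Inhba differed by -1.88 ± 0.39 (SE) and Tgm2, a transglutaminase of alternatively activated macrophages, by -1.29 ± 0.27 (SE), again with an adjusted p of 0.96 in limma. A shared size of deviation is not shown by this, since the test had 1 low-Fos library per treatment.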

How the data were processed

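RNA of 8 sorted pools (4 PBS, 4 NPC) was sequenced after cDNA amplification (Ovation RNA-Seq V2), 12 cycles of PCR and single-end sequencing to 150 bases, per the labels' protocols. The submitters' processing notes name limma, HTSeq 0.5.3, STAR 2.3.0, Trimmomatic and build mm10; no source used here gives the annotation or strand setting. The authors deposited log2 normalised expression for 12256 genes, 1 column per library; 0 per-sample columns were left unused. The linear values are whole reads plus 0.5 times a step per library (100% whole within 0.01), and the reads so recovered gave depths and the read numbers printed for single genes; no test used them. Amplified reads are not independent molecules.

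Libraries with Fos under 9 were the low-Fos class. Deviations and the 2-fold rule were computed on the deposited values. Treatment (class as further term) and the interaction were tested with limma 3.58.1 in R 4.3.3 (two-sided, variance trend, threshold 0.05 after Benjamini-Hochberg adjustment across the table); p-values measure the spread between pools. Plots used matplotlib 3.10.9, annotation GENCODE vM21 by symbol.

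The libraries, gene lists and tests were chosen with earlier results of these data known, and 5 lists (choroid plexus, conventional and mature dendritic cell, nuclear RNA, receptors) were added after values were seen. Named genes were the 4 markers, the up to 12 per direction with the largest smaller deviation at a mean log2 of at least 4, up to 4 per list at a mean of at least 3, and 5 sort genes; list members outside this rule are named to complete a count or to show members that did not follow. Alternatives were quantile normalization, equal medians, 1 added on the linear scale, a filter on low genes, the median as reference, other fold limits, other limma settings and leaving out libraries; leaving out both low-Fos libraries was added later. Not every gene that the rule selects is reported here.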

Additional observations from a re-analysis of the deposited data

Results flagged for a closer look

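In each treatment group of 4 libraries the gap between the highest or lowest library and its nearest neighbour was divided by the whole range of the group, and 28 of 270 groups of values passed Dixon's 95% critical value. Chance flags about 1 in 20 such groups, and most of the genes examined were named because PBS 1 or NPC A lay apart, so these flags are not independent of the choice.

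PBS 1 or NPC A was the isolated library for Fos, Egr1, Nr4a1, Klf4 and Atf3 among the immediate-early genes, while Fosb, Maff, Nr4a2 and Nr4a3 did not pass. For Fos the choice of libraries fixes this, and for the others it favours it, so the ratios describe the gap and test nothing. They were 0.846 for Fos in NPC, 0.926 and 0.971 for Egr1 in PBS and NPC, 0.866 and 0.831 for Nr4a1, 0.83 for Osm in PBS, 0.9 for Klf4 in NPC, 0.889 for Atf3 in PBS, 0.883 and 0.888 for Sik1, and 0.841 for Zfp36 in PBS. The means of the AP-1 list in PBS (0.901), of the other immediate-early list in NPC (0.853), of the NF-kappaB list in PBS (0.921) and of the mature dendritic cell list in PBS (0.932) were isolated in the same way.

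The isolated library was also PBS 1 or NPC A for Gm2245 in NPC (0.929), D4Wsu53e in PBS and NPC (0.862 and 0.896), Hspa1a in NPC (0.868), Pdia3 in PBS (0.868), H2-Aa in NPC (0.856), Mcm4 in PBS (0.875) and Mbp in PBS (0.84).

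Other libraries stood apart in 5 cases. PBS 3 was high for Itgax (0.87) and low in its mitochondrial share (0.938), PBS 2 was high for Cxcl9 (0.879), NPC B was high for Pcna (0.895), and NPC D was low in the mean of the neutrophil list (0.988).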

How the results depend on the processing

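No paired analysis was possible because the PBS libraries carry numbers and the NPC libraries letters, and no label pairs them. The 206 lower and 107 higher genes became 119 and 28 with 1 added on the linear scale, 89 and 8 at a mean log2 of at least 3, 454 and 426 at 1.5-fold, and 82 and 7 at 3-fold. All 82 lower genes at 3-fold and all 119 with 1 added were among the 206, which both settings fix in advance, since they can only remove genes. Leaving out 1 of the other libraries gave 186 to 221 lower and 88 to 166 higher genes, the last without PBS 3. Quantile normalization kept 188 of the lower and 79 of the higher genes, and equal medians 206 and 85.

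Genes differing with treatment at an adjusted p under 0.05 numbered 0 to 273 when 1 library was left out (5 without PBS 3, 273 without NPC B), and those at an unadjusted p 1088 to 2670, with 1212 when both low-Fos libraries were left out. For the difference between deviations the ranges were 0 to 1 and 336 to 1455, both highest without NPC B. The causes were not tested. Over 99 named genes and 34 lists, 1441 of 1462 alternative values moved by less than the spread between the other libraries, and 0 called values changed sign. The filter on low genes cannot move the deviation of a named gene, so part of that count was fixed in advance. Among named genes outside the range in both groups, Cd8a alone moved by over 1.5 times when 1 library was left out, from 0.61 to 0.36 without NPC D. The NPC libraries are shallow, so genes with few reads there have wide errors.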
